A study of Mus musculus with 9 samples.

Results

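The genes described here are the aminoacyl-tRNA synthetases and a set of amino acid and stress genes that the transcription factor ATF4 is known to control. They were chosen by gene symbol from the platform annotation. The choice took in every symbol of 1 letter followed by "ars", with or without a final 1 or 2, together with Eprs, Farsa, Farsb, Asns, Psat1, Phgdh, Psph, Shmt2, Mthfd2, Atf4, Ddit3, Trib3, Chac1 and Sesn2. That rule used no measured value, although the genes were chosen with earlier results of these data known. It gave 98 of the 45281 probes and 46 of the 19057 genes with a symbol: 19 cytosolic synthetases, 16 mitochondrial synthetases, 6 amino acid and one-carbon enzymes and 5 genes made up of Atf4 and its stress effectors.

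The study compared gene expression in neural stem and progenitor cells (NSCs/NPCs) between proliferation and differentiation in culture. The cells came from the hippocampal dentate gyrus of adult C57BL6 mice and were grown as neurospheres, floating clusters of dividing cells. Total RNA was hybridised to 9 arrays of the Illumina MouseWG-6 v2.0 type. Each stage had 3 arrays, labelled as biological replicates. The stages were proliferation (neurospheres in medium with the growth factors EGF and bFGF), early differentiation (dissociated cells on coated dishes, 2 days after the change to differentiation medium) and late differentiation (the same, 7 days after the change). The medium, the growth factors and the attachment to a dish therefore changed together between proliferation and both differentiation stages, and their parts cannot be told apart. All 3 late and all 3 proliferation arrays were on the same BeadChip (the slide that carries the arrays), and the 3 early arrays were on another, so in any comparison with early differentiation the slide and the stage cannot be told apart.

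Aminoacyl-tRNA synthetases join each amino acid to its tRNA and so feed both cytosolic and mitochondrial protein synthesis. Separate genes encode most of the cytosolic and the mitochondrial enzymes. In the integrated stress response, kinases that sense amino acid shortage, misfolded protein or other stress phosphorylate eIF2alpha, which lowers general translation but raises translation of Atf4 mRNA. ATF4 protein then binds, with C/EBP-family partners, to composite elements in the promoters of genes for amino acid synthesis, amino acid transport and tRNA charging. The arrays measured mRNA, not ATF4 protein.

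The core of this composite element (C/EBP-ATF element, searched here as TGATGNAA on both strands, where N is any base) was looked up in the RefSeq promoter windows of build GRCm38.p6, each running from 250 bases before to 50 bases after an annotated gene start. A promoter was listed for 37 of the 46 genes. The core was present in 8 of these 37 genes (21.6%), against 1219 of all 27025 genes with a promoter (4.51%). It was found in 5 of 12 cytosolic synthetases (among them Gars, Iars, Tars and Yars), in 1 of 6 enzymes (Asns), in 2 of 5 genes of the ATF4 and effector group (Chac1 and Trib3) and in 0 of 14 mitochondrial synthetases. The windows of Asns, Gars, Iars, Chac1 and Tars are printed because the calls of their mRNAs differed on the arrays, as described further on. Each shows 30 bases, 5′ to 3′ on the strand that reads the core in this direction, with the core in capitals.
Asns: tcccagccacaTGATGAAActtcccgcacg
Gars: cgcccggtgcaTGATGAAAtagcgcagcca
Iars: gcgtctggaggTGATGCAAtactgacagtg
Chac1: cctggcaggagTGATGCAAcggcagggaag
Tars: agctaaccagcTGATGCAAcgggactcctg
The Asns window lies at chr6:7693214-7693243 on the minus strand, with its core beginning at position -23 from the gene start. The Gars window lies at chr6:55037960-55037989 (minus strand, position -30), the Iars window at chr13:49682126-49682155 (minus strand, position 7, inside the transcribed region), the Chac1 window at chr2:119351038-119351067 (minus strand, position -193) and the Tars window at chr15:11399655-11399684 (plus strand, position -15). Each position is that of the first core base along the gene's own strand. In Gars, Iars, Chac1 and Tars the core reads on the strand opposite to the gene, so that base is the last letter of the printed core. The Iars, Chac1 and Tars cores share the letters TGATGCAA, and those of Asns and Gars read TGATGAAA. The match describes letters in a window and not binding. A different motif, the E-box CACGTG, was present in 5 of the 37 genes (13.5%) and in 8.09% of all genes.

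Values below are normalised log2 intensities, in which 1 unit is a doubling, and fold changes are log2 differences with the standard error (SE) of the limma fit. A gene was tested when at least 1 of its probes was detected (detection p under 0.05) on at least 3 arrays, and its brightest such probe stood for it. This held for 41 of the 46 genes. Yars, Hars2, Yars2, Psph and Trib3 did not pass. One probe of Trib3, a pseudokinase that restrains ATF4, was detected on 2 of the 3 proliferation arrays and on none of the 6 differentiation arrays. The probes of all 41 tested genes were detected on all 9 arrays, so none of them entered through 1 stage alone. A change was called where the adjusted p (limma, Benjamini-Hochberg over all 11009 genes tested) was below 0.05 and the fold was 1.5 or more.

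Differentiation in these cultures was broad. The arrays detected 18310 to 19919 probes each, and the mean raw signal was 157 to 171 on early, 173 to 180 on late and 218 to 228 on proliferation arrays. Of the 5 astrocyte markers, 4 were called higher in late differentiation and all 5 in early differentiation, and their summed intensity was 25200 to 27100 in late, 26700 to 29700 in early and 10000 to 15500 in proliferation arrays. Gfap, the astrocyte filament protein, had a log2 fold change of 4.38 ± 0.36 in late and 5.61 ± 0.36 in early differentiation. Of the 4 proliferation markers, Top2a and Pcna were called lower in both stages (-4.28 and -1.23 in late, -3.97 and -1.20 in early), while Mki67 and Ccnb1 did not pass the detection filter. Their sum was 21.3 to 28.4 in late, 22.3 to 37.0 in early and 452 to 626 in proliferation arrays. Of the 5 neuron markers 4 were tested, with a sum of 1860 to 2140 in late, 2160 to 2470 in early and 1860 to 2440 in proliferation arrays, and of the 5 neural stem and progenitor markers 4 were tested, with a sum of 4880 to 6390 in late, 4460 to 5100 in early and 2850 to 3820 in proliferation arrays. That sum is set by the bright Vim, and its members were called in both directions: Vim (1.13 in late, 0.86 in early) and Sox2 (0.80 in late, 0.69 in early) higher, Fabp7 lower (-1.73 in late, -0.90 in early) and Nes lower in early cells (-0.66). Of the microglia and endothelial or mural markers 1 of 5 each was tested, and of the fibroblast markers 0 of 4. The sum of the 3 tested oligodendrocyte lineage markers was 33.7 to 60.8 in late, 51.1 to 71.2 in early and 19.3 to 26.7 in proliferation arrays. The astrocyte, oligodendrocyte lineage, progenitor and proliferation sums of both differentiation stages did not overlap with those of proliferation, so they moved with every difference from proliferation given below, and their part in the results was not tested. The neuron, microglia and endothelial or mural sums overlapped. The neuron sum is set by the bright Map2, which was not called (-0.18 in late, 0.01 in early). Its dim members Rbfox3 and Dcx were detected on no proliferation array. Rbfox3 was called higher in early cells (1.23, adjusted p = 0.00258, limma) but not in late cells (0.39). Dcx was higher in late cells (0.58, adjusted p = 0.000952, limma), under the fold needed for a call. Tubb3 was not called (-0.03 in late, -0.14 in early). In bulk RNA, fewer cells of a type and less RNA per cell cannot be told apart.

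The first comparison asked how the genes differed after 7 days of differentiation from the proliferating cells. Late differentiation had 12 of the 41 genes called lower and 3 called higher, where over all genes 16.2% were called lower, 17.6% higher and 33.9% in either direction. The total of 15 was thus near the background, and it was the direction that differed in these counts: 29.3% of the genes were lower and 7.32% higher. The median log2 fold change was -0.19 over the 41 genes and 0.01 over all genes. The values of the 3 late and the 3 proliferation arrays did not overlap for 25 of the 41 genes (lower in late for 19), against 61.6% of all genes. Fitting only these 6 arrays, all of 1 BeadChip, called 12 lower and 3 higher as well. Without normalization between arrays the split was 22 lower and 0 higher, in a setting where the median of all genes itself shifted by -0.31.

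Early differentiation likewise had 12 of the 41 genes called lower and 3 called higher than proliferation, where over all genes 15.2% were called lower, 16.8% higher and 32.0% in either direction. The median was -0.36 over the 41 genes and 0.00 over all genes. The arrays did not overlap for 30 of the 41 genes (lower in early for 24), against 61.3% of all genes. Without normalization between arrays the split was 26 lower and 0 higher, with a shift of -0.41 in the median of all genes. Both comparisons use the same proliferation arrays, so they are not independent. Side by side, 11 genes were called lower in both, 2 were called higher in both and 24 were called in neither.

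**Figure D1:**
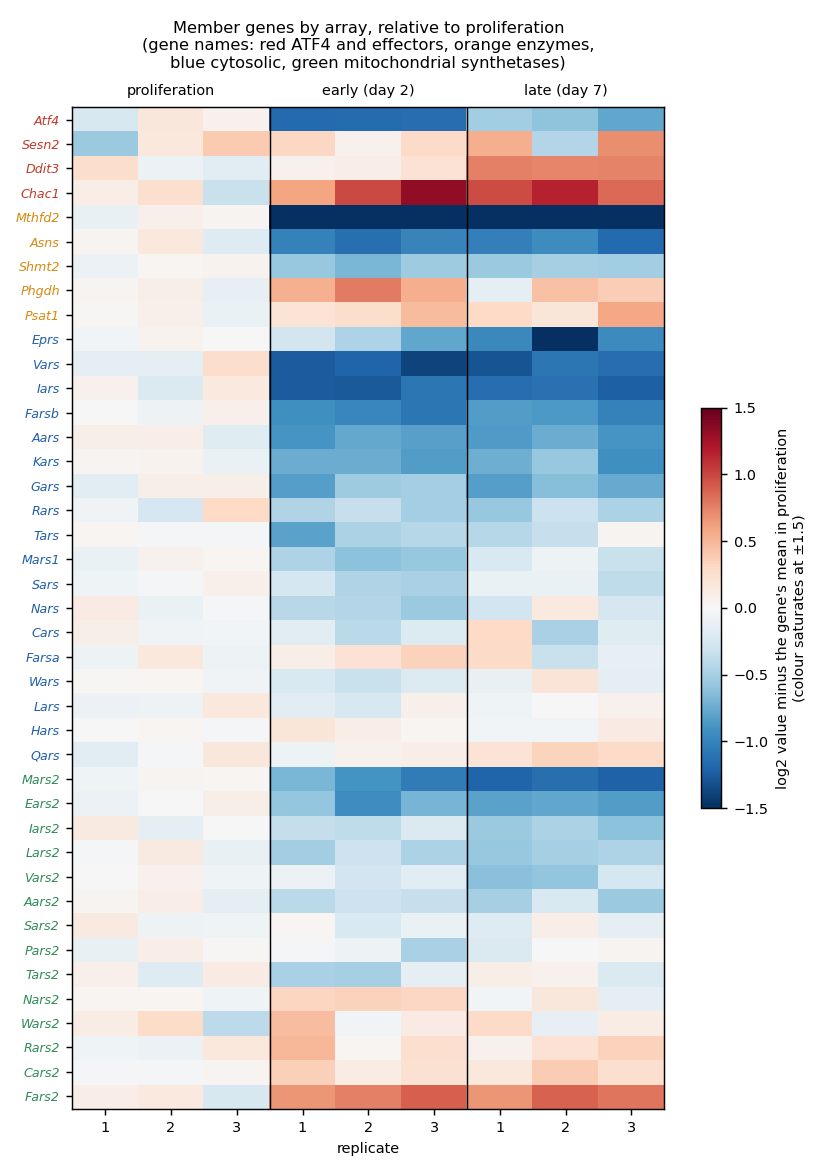
Normalised log2 value of each of the 41 tested genes (rows, grouped by role and ordered within a role by the late change) on each of the 9 arrays (columns, replicates 1 to 3 of proliferation, early and late differentiation), minus the gene's mean over the 3 proliferation arrays. Mthfd2 is lower by more than the colour range on all 6 differentiation arrays, and Chac1 and Fars2 are higher on all 6.

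The called cytosolic synthetases were all lower in differentiation, and they made up 7 of the 12 decreases in late and 6 of the 12 in early cells. In late differentiation 7 of the 18 tested (38.9%) were called lower and 0 higher, against 16.2% and 17.6% of all genes. The median was -0.23. The 7 were Eprs, Vars, Iars, Farsb, Aars, Kars and Gars, which charge the tRNAs of glutamate and proline, valine, isoleucine, phenylalanine (as the beta subunit), alanine, lysine and glycine. In early differentiation 6 of the 18 (33.3%) were called lower and 0 higher, against 15.2% and 16.8% of all genes. The median was -0.49, and the 6 were the same genes without Eprs. An unadjusted p under 0.05 was reached by 9 of the 18 in late and 13 of the 18 in early differentiation, against 59.3% and 57.4% of all genes in the same order. Kars and Gars are counted as cytosolic here, although the chosen genes hold no separate mitochondrial gene for lysine or glycine.

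Vars had 7.98, 7.99 and 8.37 on the proliferation arrays, 6.87, 6.92 and 6.73 on the early arrays and 6.82, 7.03 and 6.98 on the late arrays. Iars had 8.48, 8.19 and 8.56 in proliferation, 7.17, 7.15 and 7.32 in early and 7.26, 7.29 and 7.19 in late differentiation. For both genes every differentiation array lay below every proliferation array, while early and late arrays overlapped. The fold change of Vars was -1.17 ± 0.13 in late (adjusted p = 2.12e-05, limma) and -1.28 ± 0.13 in early differentiation (adjusted p = 1.28e-05), and that of Iars was -1.16 ± 0.11 in late (adjusted p = 1.06e-05) and -1.20 ± 0.11 in early differentiation (adjusted p = 9.71e-06).

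Farsb had 9.85, 9.78 and 9.93 in proliferation, 8.93, 8.88 and 8.77 in early and 9.02, 8.99 and 8.84 in late differentiation, a change of -0.90 ± 0.10 in late and -0.99 ± 0.10 in early cells. Aars had 9.84, 9.85 and 9.57 in proliferation, 8.87, 8.99 and 8.94 in early and 8.91, 9.01 and 8.87 in late differentiation. The change of Aars was -0.82 in late and -0.82 in early cells, and its level in late and early cells differed by 0.00 ± 0.11. The alpha subunit of the phenylalanine enzyme, Farsa, was not called (-0.05 ± 0.15 in late, 0.22 ± 0.15 in early cells), and its arrays overlapped between the stages. Its probe was dim (mean 4.94 in proliferation, against 9.85 for Farsb), and the background offset compresses changes of dim probes. A difference between the 2 subunits therefore cannot be read from these values. Kars had 8.31, 8.32 and 8.16 in proliferation, 7.52, 7.52 and 7.42 in early and 7.53, 7.69 and 7.35 in late differentiation, a change of -0.74 ± 0.11 in late and -0.78 ± 0.11 in early cells. Gars had 11.31, 11.57 and 11.58 in proliferation, 10.66, 10.95 and 10.97 in early and 10.66, 10.85 and 10.73 in late differentiation. None of these 4 called genes had an overlap between a differentiation stage and proliferation. The change of Gars was -0.74 ± 0.12 in late cells (adjusted p = 0.000401, limma) and -0.62 ± 0.12 in early cells (adjusted p = 0.00132). The early call of Gars was lost without proliferation replicate 2 (-0.58), proliferation replicate 3 (-0.58) or early replicate 1 (-0.52), each time because the fold dropped below 1.5. The late call of Kars was lost when all its detected probes were averaged (-0.57).

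Eprs, the bifunctional glutamate and proline enzyme that also serves as a scaffold of the multisynthetase complex, followed another course. It had 7.38, 7.46 and 7.41 on the proliferation arrays, 7.14, 6.95 and 6.64 on the early arrays and 6.45, 5.66 and 6.47 on the late arrays. The proliferation arrays lay within 0.09 of each other, and each later stage lay below the one before it with no overlap. Late cells were 2.34-fold lower than proliferating cells (-1.23 ± 0.20, adjusted p = 0.000474, limma), whereas the early difference of -0.51 ± 0.20 did not pass the test (adjusted p = 0.0592). The late replicate 2 was the lowest array. The late minus early difference was -0.72 ± 0.20, which missed the threshold (adjusted p = 0.0613) and passed it with the replicate number as a block. A further Eprs probe gave -0.88 in late (called) and -0.38 in early cells (not called). Its late minus early difference was -0.50 (adjusted p = 0.308, limma). Another, dimmer probe was called in neither stage (-0.20 in late, -0.24 in early cells) and did not step down from early to late cells (0.03).

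The other 11 cytosolic synthetases were called in neither comparison. Their log2 fold changes ran from -0.45 (Rars, arginine) to 0.28 (Qars, glutamine) in late and from -0.57 (Tars, threonine) to 0.22 (Farsa) in early differentiation. In early cells 5 of the 11, all lower, had an adjusted p below 0.05 (limma) but a fold below 1.5. They were Tars (-0.57 ± 0.14), Mars1 (methionine, -0.55 ± 0.10), Nars (asparagine, -0.47 ± 0.13), Rars (-0.43 ± 0.14) and Sars (serine, -0.40 ± 0.11). In late cells this held for Rars only. Of the enzymes that sit in the multisynthetase complex, Eprs, Iars and Kars were called lower in at least 1 stage, and Lars, Mars1, Qars and Rars were not called.

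**Figure D2:**
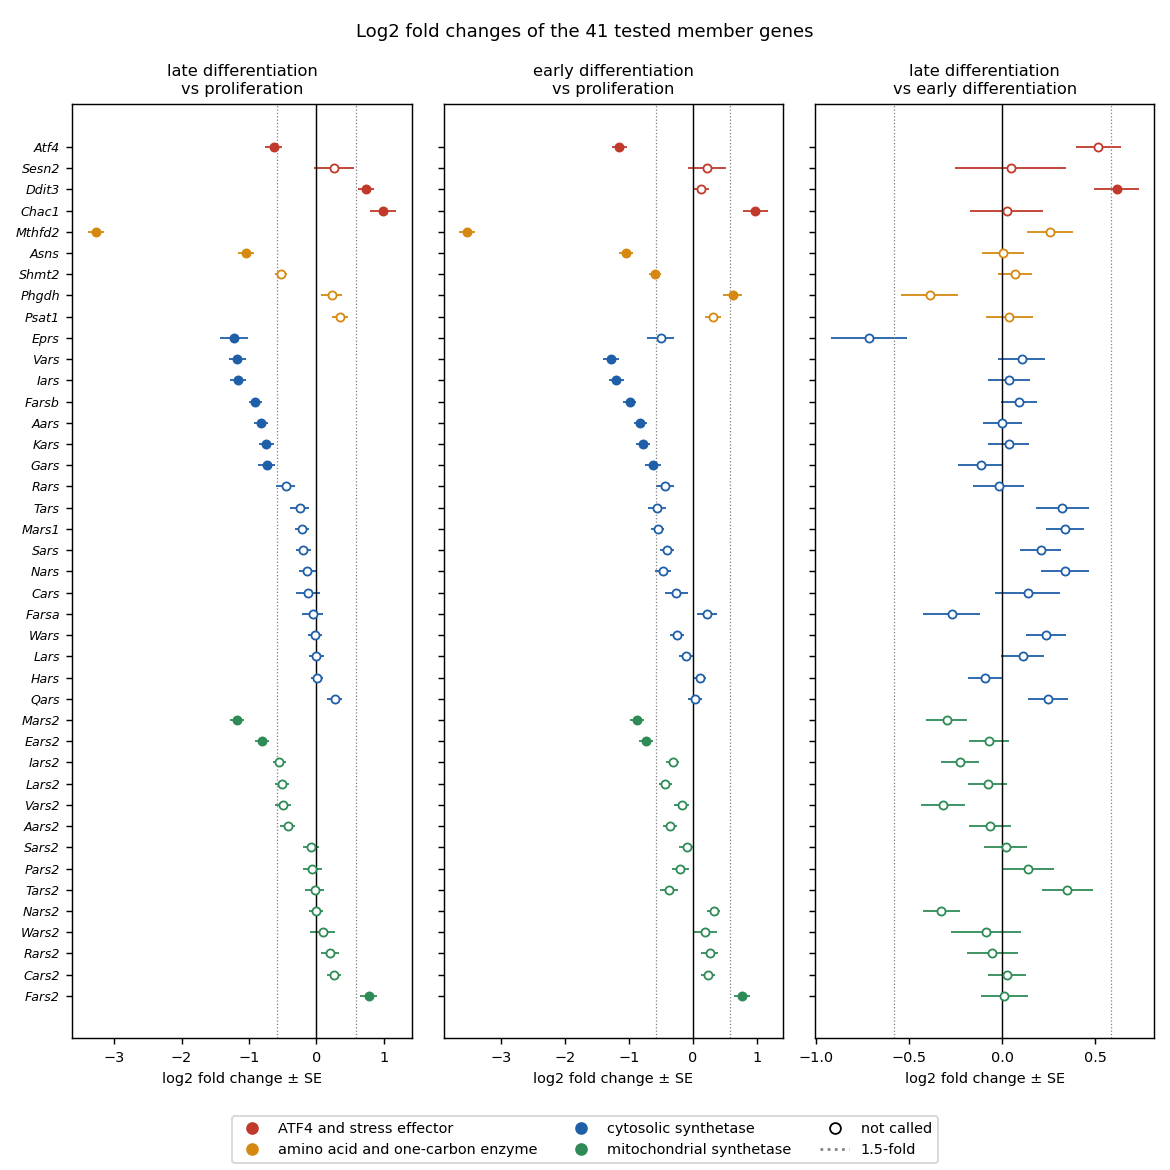
Log2 fold change ± SE of each tested gene in late differentiation over proliferation, early differentiation over proliferation and late over early differentiation, with colours for the 4 roles. Filled points were called, open points were not, and dotted lines mark a fold of 1.5. The called cytosolic synthetases all lie below 0, and 1 gene (Ddit3) is called in the panel of late over early differentiation.

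The mitochondrial synthetases were called lower about as often as all genes. In late differentiation 2 of the 14 tested were called lower (Mars2 and Ears2, 14.3%, against 16.2% of all genes) and 1 higher (Fars2, 7.14%, against 17.6%), with a median of -0.07. The same 3 genes were called in early differentiation, where the median was -0.19. Several mitochondrial probes were dim, with a mean over all arrays of 4.81 (Sars2), 4.86 (Aars2), 5.07 (Pars2) and 5.11 (Nars2). Some cytosolic probes were dim too (Hars at 4.66, Farsa at 4.99 and Cars at 5.05). The background offset compresses changes of dim probes, so a difference between mitochondrial and cytosolic synthetases cannot be read from these counts. Mars2, the mitochondrial methionine enzyme, had 6.57, 6.68 and 6.68 in proliferation, 5.96, 5.75 and 5.59 in early and 5.45, 5.51 and 5.43 in late differentiation, a change of -1.18 ± 0.11 in late cells (adjusted p = 6.67e-06, limma) and -0.88 ± 0.11 in early cells (adjusted p = 6.11e-05). The 3 stages did not overlap, with the late arrays lowest, although late and early cells did not differ past the threshold (-0.30 ± 0.11, adjusted p = 0.122). Ears2, for glutamate, had 6.55, 6.64 and 6.73 in proliferation, 6.06, 5.71 and 5.95 in early and 5.84, 5.87 and 5.80 in late differentiation. All 6 differentiation arrays of Ears2 lay below the proliferation arrays, with a change of -0.81 ± 0.11 in late and -0.73 ± 0.11 in early cells. Both calls of Ears2 were lost with a background offset of 50 (-0.56 in late, -0.51 in early).

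Fars2, for phenylalanine, was the only synthetase called higher. It had 8.75, 8.80 and 8.41 in proliferation, 9.32, 9.41 and 9.55 in early and 9.31, 9.54 and 9.45 in late differentiation, so that every differentiation array exceeded every proliferation array. The increase was 0.78 ± 0.13 in late cells (adjusted p = 0.000373, limma) and 0.77 ± 0.13 in early cells (adjusted p = 0.000443). Without normalization between arrays its change was 0.26 in late and 0.09 in early cells and was not called, and relative to the shift of all genes in that setting it was 0.57 and 0.50 in the same order. The 11 other mitochondrial synthetases were not called. Of these, Iars2 (-0.55 ± 0.10), Lars2 (-0.51 ± 0.10), Vars2 (-0.49 ± 0.12) and Aars2 (-0.42 ± 0.11) had an adjusted p below 0.05 in late differentiation but a fold below 1.5. In early differentiation this held for 5 genes. Nars2 was higher (0.33 ± 0.10), and Lars2, Tars2, Aars2 and Iars2 were lower.

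**Figure D3:**
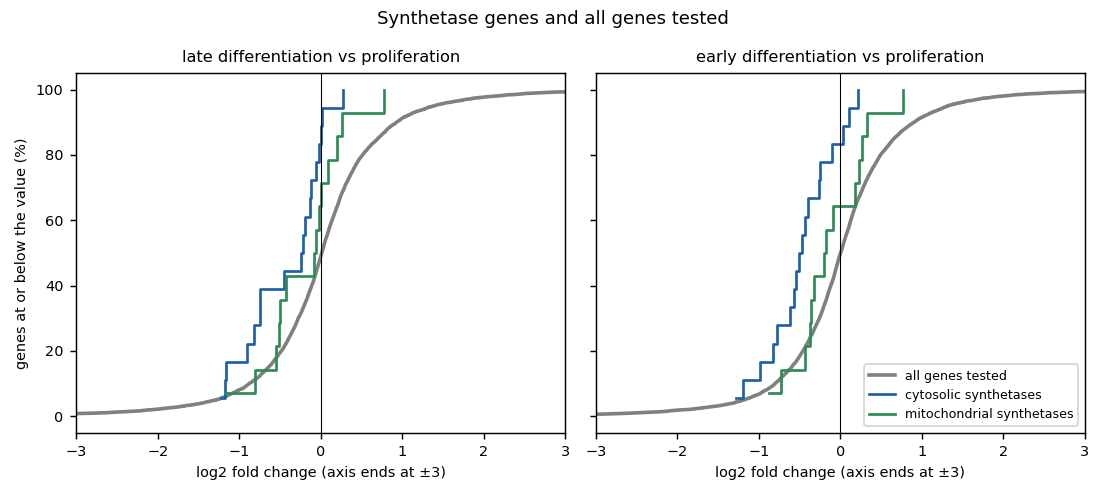
Cumulative share of genes (%) against the log2 fold change for the 18 cytosolic synthetases, the 14 mitochondrial synthetases and all 11009 genes tested, in late and in early differentiation over proliferation. The cytosolic curve lies left of the curve of all genes over most of its range and ends at 0.28 in late and 0.22 in early differentiation.

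Among the amino acid and one-carbon enzymes, Mthfd2 had the largest change of all 41 genes. It encodes the mitochondrial methylenetetrahydrofolate dehydrogenase, an enzyme of one-carbon metabolism typical of dividing cells. Mthfd2 had 8.33, 8.53 and 8.49 on the proliferation arrays, 4.92, 4.99 and 4.85 on the early arrays and 5.43, 5.11 and 4.997 on the late arrays. It was 9.66-fold lower in late than in proliferating cells (-3.27 ± 0.12, adjusted p = 1.35e-08, limma) and 11.5-fold lower in early than in proliferating cells (-3.53 ± 0.12, adjusted p = 1.1e-08). Its decrease was much larger than the spread between arrays, which was at most 0.22 (SD, n = 3) within a stage. The size depended on the processing. Under the alternatives run it ranged from -4.03 to -2.42 in late and from -4.34 to -2.545 in early differentiation, and it was called under each. The late arrays lay above the early arrays with no overlap, by 0.26 ± 0.12, which did not pass the test (adjusted p = 0.235). A further Mthfd2 probe was detected on the 3 proliferation arrays only, which made it at least 2.47-fold lower in late and at least 2.499-fold lower in early differentiation.

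Asns, asparagine synthetase, had 9.62, 9.74 and 9.39 in proliferation, 8.57, 8.46 and 8.58 in early and 8.56, 8.64 and 8.42 in late differentiation. The differentiation arrays all lay below the proliferation arrays, and early and late arrays overlapped. Asns was 2.06-fold lower in late (-1.04 ± 0.11, adjusted p = 2.28e-05, limma) and 2.07-fold lower in early differentiation (-1.05 ± 0.11, adjusted p = 2.51e-05). Its 2 further detected probes were called lower in late cells too, one at -1.17 and one, which was detected on no late array, at least 1.64-fold. In early cells the first of these was called at -1.32 and the dimmer one, at -0.45 (adjusted p = 0.00761, limma), stayed under the fold of 1.5. Shmt2, the mitochondrial serine hydroxymethyltransferase that supplies one-carbon units to Mthfd2, had 7.04, 7.16 and 7.18 in proliferation, 6.56, 6.45 and 6.60 in early and 6.58, 6.63 and 6.60 in late differentiation. Its decrease was called in early cells (-0.59 ± 0.09, adjusted p = 3e-04) and stayed under a fold of 1.5 in late cells (-0.53 ± 0.09, adjusted p = 0.000631). All 6 differentiation arrays of Shmt2 lay below the proliferation arrays, and the early call, close to the fold threshold, was lost without proliferation replicate 2 (-0.58), proliferation replicate 3 (-0.57) or early replicate 2 (-0.55). It was also lost with a background offset of 50 and with the mean of all detected probes. A dimmer Shmt2 probe was called in neither stage (-0.37 in late, -0.29 in early cells).

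The serine synthesis enzymes did not share this direction. Phgdh, phosphoglycerate dehydrogenase, which commits glycolytic carbon to serine, had 6.87, 6.91 and 6.71 in proliferation, 7.36, 7.61 and 7.37 in early and 6.70, 7.27 and 7.20 in late differentiation. The early arrays exceeded all proliferation arrays (0.62 ± 0.15, adjusted p = 0.00568, limma), whereas the late arrays overlapped with them, with late replicate 1 the lowest of all 9 (0.23 ± 0.15, adjusted p = 0.233). The early call was lost without proliferation replicate 3 (0.56) or early replicate 2 (0.54), and also with cyclic loess normalization or a background offset of 50. Without normalization between arrays the change was 0.00, or 0.41 relative to all genes, and was not called. Psat1, phosphoserine aminotransferase, the next enzyme, had 10.65, 10.70 and 10.53 in proliferation, 10.83, 10.90 and 11.11 in early and 10.93, 10.81 and 11.21 in late differentiation. The differentiation arrays of Psat1 lay above the proliferation arrays without overlap, but the difference was 0.35 ± 0.13 in late (adjusted p = 0.0344) and 0.31 ± 0.13 in early cells (adjusted p = 0.0561), under the fold of 1.5. The probe of Psph, phosphoserine phosphatase, was detected on 0 of 9 arrays.

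**Figure D4:**
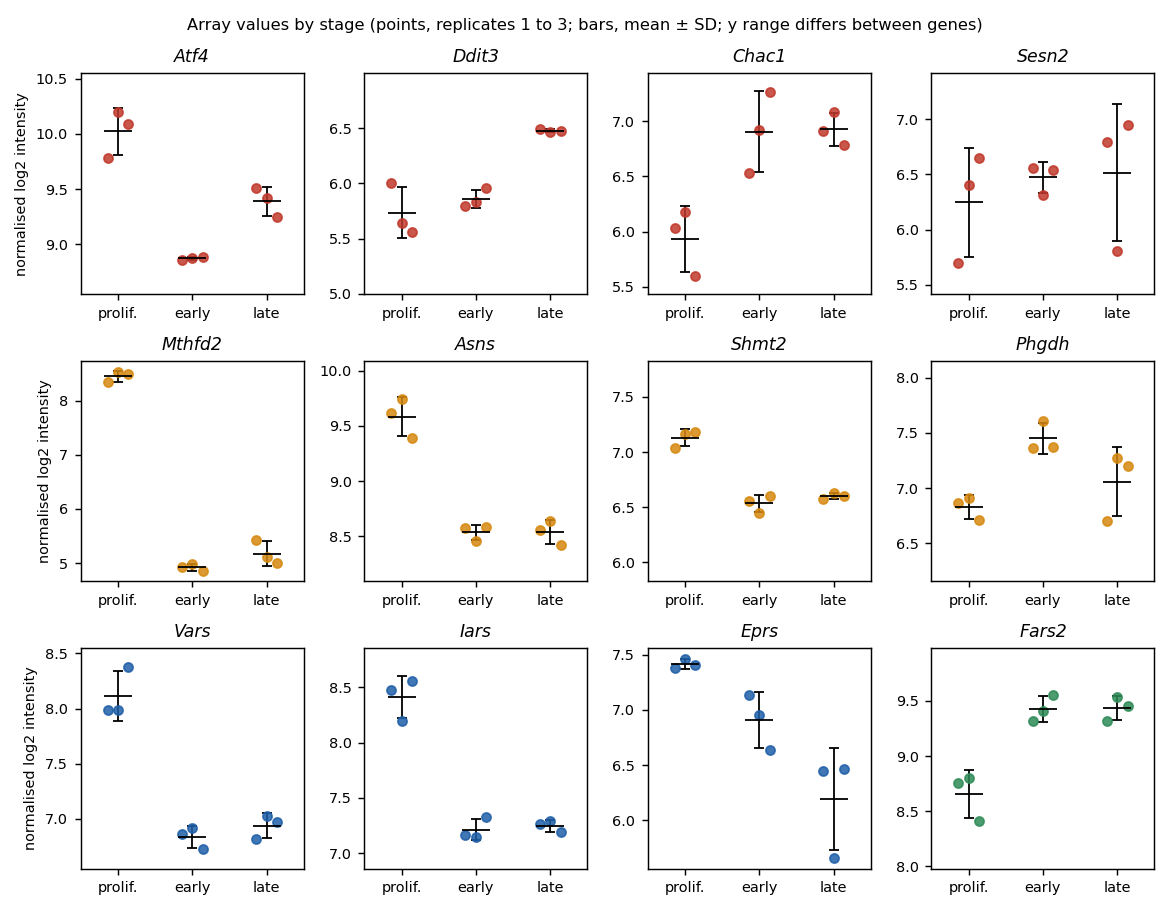
Normalised log2 intensity of 12 genes on each array (points) with the mean ± SD of the 3 arrays of a stage (bars), in proliferation, early (day 2) and late (day 7) differentiation. Each panel has its own y range of at least 2 units. Atf4 is lowest in early differentiation, Ddit3 is highest in late differentiation, and Eprs steps down at each stage.

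Atf4 mRNA itself was lower in both differentiation stages. It had 9.78, 10.20 and 10.09 on the proliferation arrays, 8.86, 8.87 and 8.88 on the early arrays and 9.50, 9.42 and 9.24 on the late arrays, and no stage overlapped with another. The early arrays were the lowest and agreed within 0.03 of each other. Atf4 was 2.22-fold lower in early cells (-1.15 ± 0.12, adjusted p = 2.11e-05, limma) and 1.55-fold lower in late cells (-0.63 ± 0.12, adjusted p = 0.0012). Late cells exceeded early cells by 0.52 ± 0.12 (adjusted p = 0.0302), under the fold of 1.5. The late call was lost without proliferation replicate 2 (-0.55) or late replicate 3 (-0.56). A further Atf4 probe gave -0.88 in late and -1.15 in early differentiation, both called.

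Of the 3 tested effectors chosen with Atf4, Chac1 was called higher in both stages, Ddit3 in late differentiation and Sesn2 in neither. Of 9 tested further stress targets of ATF4, 3 were called lower and 1 higher in late differentiation (16.2% and 17.6% over all genes). In early differentiation 5 were called lower and 0 higher (15.2% and 16.8% over all genes). Vegfa and Eif4ebp1 were called lower in both stages. Chac1, a gamma-glutamylcyclotransferase that breaks down glutathione, had 6.03, 6.17 and 5.60 in proliferation, 6.53, 6.92 and 7.26 in early and 6.91, 7.08 and 6.78 in late differentiation. The increase was 0.99 ± 0.19 in late (adjusted p = 0.00137, limma) and 0.97 ± 0.19 in early cells (adjusted p = 0.00168), with every differentiation array above every proliferation array. Without normalization between arrays it was 0.57 in late and 0.44 in early cells and no longer called, or 0.88 and 0.84 relative to all genes. Ddit3, which encodes the transcription factor CHOP of prolonged stress, had 5.999, 5.64 and 5.56 in proliferation, 5.80, 5.83 and 5.95 in early and 6.49, 6.46 and 6.47 in late differentiation. The 3 late arrays, within 0.03 of each other, exceeded all other arrays, while early and proliferation arrays overlapped. The increase in late cells was 0.74 ± 0.12 over proliferation (adjusted p = 0.000384), and the early difference was 0.13 ± 0.12 (adjusted p = 0.408). A further Ddit3 probe gave 0.46 in late (adjusted p = 0.0125), under the fold of 1.5, and 0.04 in early differentiation. The late call over proliferation was lost with an offset of 50 (0.49) and without normalization between arrays (0.34, or 0.65 relative to all genes). Sesn2, a leucine sensor that restrains mTORC1, had 5.70, 6.41 and 6.65 in proliferation, 6.56, 6.31 and 6.54 in early and 6.79, 5.81 and 6.95 in late differentiation. It varied more between replicates than any difference between stages, with proliferation replicate 1 and late replicate 2 the lowest arrays, and was not called (0.27 ± 0.30 in late, 0.22 ± 0.30 in early cells).

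The third comparison asked what changed between 2 and 7 days of differentiation. Of the 41 genes, 1 was called higher in late than in early differentiation and 0 lower, where over all genes 1.57% were called higher, 2.35% lower and 3.92% in either direction. With the replicate number as a block, 2 genes were called, Ddit3 higher and Eprs lower. The single gene was Ddit3 (0.61 ± 0.12, adjusted p = 0.0149, limma), and its call was lost without early replicate 1 (adjusted p = 0.0576) or early replicate 2 (adjusted p = 0.0586). Late and early arrays did not overlap for 12 of the 41 genes (5 lower and 7 higher in late), against 28.6% of all genes. An unadjusted p under 0.05 was reached by 13 of the 41, against 24.1% of all genes. The median over the 41 genes was 0.03, and that over all genes 0.01. For Vars, Iars and Asns the late minus early difference was 0.10 ± 0.13, 0.03 ± 0.11 and 0.00 ± 0.11, small beside their decreases from proliferation.

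More than 1 probe was detected for 25 of the 41 genes, with 33 further probes in all. Of the further probes, 12 belonged to genes called in late differentiation. All 12 had the sign of the brightest probe, 9 were called the same way and 0 the opposite way. In early differentiation 10 belonged to called genes, again all with the same sign, of which 7 were called the same way and 0 the opposite way. A further probe was called where the brightest was not for Sars in late cells (-0.67, against -0.19) and for Mars1 in early cells (-0.60, against -0.55).

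**Figure D5:**
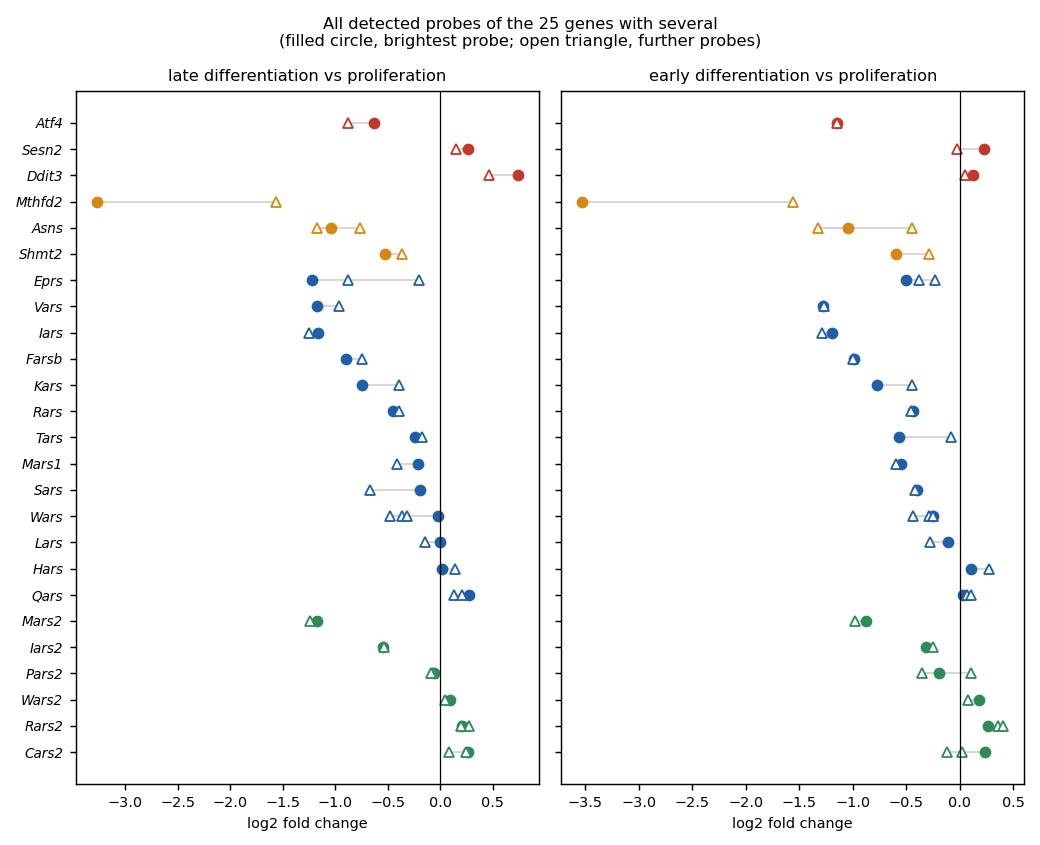
Log2 fold changes of all detected probes of the 25 genes with several, in late and in early differentiation over proliferation. Filled circles mark the brightest probe, which stands for the gene, and open triangles the others. The 2 Mthfd2 probes lie far apart, the second being detected in proliferation only.

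Of the 8 genes with the TGATGNAA core in their promoter window, 6 were tested. In late as in early differentiation, 4 were called lower (among them Asns, Gars and Iars), 1 higher (Chac1) and 1 was not called (Tars, -0.24 in late and -0.57 in early cells). The early decrease of Tars had an adjusted p of 0.0062 (limma) and stayed under the fold of 1.5. Of the 27 tested genes whose listed window lacked the core, 7 were called lower, 2 higher and 18 not called in each of these comparisons. Over all genes 16.2% were called lower and 17.6% higher in late, and 15.2% lower and 16.8% higher in early differentiation. The genes with the core are few, and the only one called higher was Chac1. Mthfd2, with the largest decrease, had no core in its 300-base window, and bases outside the window were not searched. Whether the element took part in these changes was not tested.

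Other genes of the pathway were counted from lists grouped by function. The arrays tested 59 of them, of which 13 (22%) were called higher and 15 (25.4%) lower in late differentiation, where over all genes the shares were 17.6% and 16.2%. In early differentiation 12 (20.3%) were called higher and 18 (30.5%) lower, where over all genes the shares were 16.8% and 15.2%. The lists that follow hold few genes each, and their counts stand against these same shares. Without normalization between arrays these counts were 7 higher and 26 lower in late and 6 higher and 27 lower in early differentiation.

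Of the 4 genes of the multisynthetase complex scaffold and tRNA export, 1 was called lower in each stage: Eef1e1 (AIMP3), a small scaffold protein, at -1.66 ± 0.09 in late and -1.67 ± 0.09 in early cells. Aimp1, Aimp2 and the tRNA exporter Xpot were not called. Of 9 tested genes for eIF2alpha kinases, phosphatases and the exchange factor eIF2B, 1 was higher and 2 lower in late differentiation, and 1 higher and 1 lower in early differentiation. Eif2b3, a subunit of eIF2B, fell in both (-0.74 ± 0.11 in late, -0.96 ± 0.11 in early cells), and Eif2b1 fell in late cells (-0.60 ± 0.11). Ppp1r15a (GADD34), which directs the phosphatase that reverses eIF2alpha phosphorylation, rose in late cells (0.64 ± 0.12), and Eif2ak2 (PKR), an eIF2alpha kinase activated by double-stranded RNA, rose in early cells (0.66 ± 0.11).

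Of the 7 bZIP partners of ATF4, 3 were higher in late and 2 in early differentiation, and 0 were lower. Atf3, a stress-induced repressor and activator, was detected on no proliferation array and on all 6 differentiation arrays, which made it at least 4.26-fold higher in late (adjusted p = 4.23e-06, limma) and at least 2.89-fold higher in early cells (adjusted p = 4.09e-05). Cebpb, a C/EBP factor, rose by 0.73 ± 0.21 in late and 0.59 ± 0.21 in early cells, and Atf5 rose by 0.59 ± 0.13 in late cells.

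Of 8 tested amino acid transporters, 4 were higher and 1 lower in each differentiation stage, so most called transporters went opposite to the called synthetases. The increases were those of Slc38a1 (1.38 ± 0.30 in late, 2.14 ± 0.30 in early cells) and Slc38a2 (0.79 ± 0.13 in late, 1.13 ± 0.13 in early cells), which carry glutamine and other small neutral amino acids, of Slc7a3 (1.39 ± 0.14 in late, 1.20 ± 0.14 in early cells), a transporter of arginine and lysine, and of Slc6a9 (0.91 ± 0.14 in late, 1.61 ± 0.14 in early cells), the glycine transporter GlyT1. Slc6a9 was also lower in late than in early cells (-0.70 ± 0.14, adjusted p = 0.0158, limma). Slc1a4, which exchanges serine, alanine and other small amino acids, fell (-1.58 ± 0.14 in late, -1.63 ± 0.14 in early cells).

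Of 11 tested further enzymes of amino acid and one-carbon metabolism, 1 was higher and 5 lower in late, and 2 higher and 4 lower in early differentiation. Shmt1, the cytosolic counterpart of Shmt2, had -2.29 ± 0.11 in late and -1.92 ± 0.11 in early cells. Aldh18a1, the first enzyme of proline synthesis, had -1.42 ± 0.12 in late and -1.03 ± 0.12 in early cells, and Cbs, which joins homocysteine to serine, had -0.94 ± 0.26 in late and -0.92 ± 0.26 in early cells. These 3 were called lower in both stages. Ass1, argininosuccinate synthase, rose by 2.18 ± 0.36 in late and 1.64 ± 0.36 in early cells, and Gpt2, the mitochondrial alanine aminotransferase, rose in early cells only by its call (0.65 ± 0.11) and was lower in late than in early cells (-0.69 ± 0.11, adjusted p = 0.00718, limma).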

How the data were processed

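The authors exported the array signals from GenomeStudio. The deposited table used here gave, for each probe and array, an intensity that still included the background, and a detection p-value. The deposited value table (background-subtracted intensity times 1 factor per array) served only as an alternative. Symbols came from the platform annotation (34885 probes with 1 symbol, 18 with several, 10378 with none).

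With limma 3.58.1 (R 4.3.3), intensities were background-corrected (neqc, offset 16, which compresses changes of dim probes), quantile normalized and log2 transformed. Detection at p under 0.05 was required on 3 or more arrays, which kept 20935 probes (74 of the 98 described here). The brightest kept probe stood for its gene. A model with 1 mean for each stage used all 9 arrays (lmFit, eBayes), and the 3 contrasts were adjusted by Benjamini-Hochberg over 11009 genes. A probe detected on no array of a stage was raised there to the lowest detected value of each array, which gives the "at least" folds. The script was tested on simulated data. With 3 arrays per stage precision is limited, and since the labels do not say which animals or cultures gave a replicate, p-values measure the spread between these samples.

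The genes and lists were chosen with earlier results of these data known, so counts over them are descriptions, and no set test was run. Array values are given for the enzymes, Atf4 and its effectors, and the called synthetases with the largest changes (up to 8 cytosolic and 5 mitochondrial). Of each further list up to 3 called genes in each direction are named. Deviations of same-numbered arrays from their stage means correlated at 0.172 to 0.386 in the comparisons with early differentiation, above the minimum of 0.1 for pairing, but at 0.0642 to 0.142 between late differentiation and proliferation. No 2 arrays held identical values. Alternatives covered normalization, offset, value table, filter, probe choice, arrays fitted, a replicate block, the call rule and each array left out. Promoter windows came from RefSeq (GRCm38.p6).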

Additional observations from a re-analysis of the deposited data

Results flagged for a closer look

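Ddit3 differed between the differentiation stages in its change from proliferation: the late minus early difference was 0.61 ± 0.12 on the log2 scale (adjusted p = 0.0149, limma, tested directly), with 6.49, 6.46 and 6.47 on the late and 5.80, 5.83 and 5.95 on the early arrays, so all 3 late arrays were higher. Early and late arrays were on different BeadChips, so slide and stage cannot be separated in this difference. The further Ddit3 probe gave 0.42 for the same difference and was not called.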

How the results depend on the processing

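Of the 15 genes called in late differentiation, 9 kept their call under every alternative run, 6 lost it under at least 1, and 0 changed sign. The same counts (9, 6 and 0) held for the 15 called in early differentiation. The number called stayed at 12 to 16 in early and 15 to 16 in late differentiation when single arrays were left out, but was 26 (0 higher) in early differentiation without normalization between arrays. The median over the genes in late differentiation was -0.64 without normalization (-0.34 relative to all genes), -0.13 with no filter and -0.29 with the mean of all probes, and -0.24 to -0.11 without single arrays. In early differentiation it was -0.90 without normalization (-0.49 relative to all genes), -0.23 with an offset of 50 and -0.29 with no filter, and -0.36 to -0.31 without single arrays. Between late and early differentiation, the 1 call of Ddit3 fell to 0 with cyclic loess, an offset of 50, the value table or the mean of all probes. It became 2 without normalization, with the replicate block and at an unadjusted p under 0.05 with the same fold of 1.5, and was 0 to 3 without single arrays. That median was 0.14 without normalization and -0.035 to 0.052 without single arrays. The replicate block changed no other call. Of the uncalled genes, Sesn2 in late differentiation turned to -0.17 without normalization and ran from -0.0085 (without proliferation replicate 1) to 0.62 (without late replicate 2) when single arrays were left out. Qars in early differentiation turned to -0.62 without normalization and ran from -0.049 to 0.115 without single arrays, with proliferation replicate 1 or early replicate 3 left out for the values below 0. The causes were not tested. Where a signal lay near background (Trib3, Psph, Yars, Yars2 and Hars2), no change could be measured.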

Other observations

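Chaperones and folding enzymes of the endoplasmic reticulum, which the unfolded protein response controls beside the ATF4 arm, were called in both directions. Of 11 tested, 3 were higher and 3 lower in late differentiation, and 3 were higher and 6 lower in early differentiation. Over all genes 17.6% were called higher and 16.2% lower in late, and 16.8% higher and 15.2% lower in early differentiation. Dnajc3, an inhibitor of eIF2alpha kinases and a co-chaperone, was higher by 1.43 ± 0.12 in late and 0.95 ± 0.12 in early cells. Dnajb9 was higher by 1.15 ± 0.10 in late and 1.31 ± 0.10 in early cells, and Pdia4, a protein disulfide isomerase, by 0.84 ± 0.11 in late and 0.64 ± 0.11 in early cells. Among the lower genes, Sdf2l1 had -0.80 ± 0.17 in late and -1.19 ± 0.17 in early cells, Calr (calreticulin) had -1.005 ± 0.15 in late and -1.11 ± 0.15 in early cells, and Xbp1, a transcription factor of this response, had -0.95 ± 0.11 in early cells and exceeded its early level in late cells by 0.73 ± 0.11 (adjusted p = 0.00589, limma).

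Of 9 tested further stress targets of ATF4, 1 was higher and 3 lower in late differentiation, and 0 were higher and 5 lower in early differentiation. These counts stand against the same shares of all genes. Vegfa, a vascular growth factor, had -1.39 ± 0.15 in late and -1.39 ± 0.15 in early cells. Eif4ebp1, an inhibitor of cap-dependent translation, had -0.92 ± 0.15 in late and -0.96 ± 0.15 in early cells, and Vldlr, a lipoprotein receptor, had -1.08 ± 0.22 in late and -0.93 ± 0.22 in early cells. Herpud1, a factor of endoplasmic reticulum-associated degradation, was the exception, with 1.16 ± 0.15 in late cells over proliferation and 0.92 ± 0.15 over early cells (adjusted p = 0.00661, limma).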
